A study of Mus musculus with 21 samples.

Results

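The genes described here mark the microvillous and chemosensory cells of the olfactory epithelium. They comprise 6 genes of tuft-like microvillous cells (Trpm5, Sh2d7, Avil, Il25, Chat and Pou2f3) and 3 genes of ionocyte-like microvillous cells (Ascl3, Cftr and Foxi1). The 9 symbols were chosen by name and were found in both deposited expression tables, among 23614 genes in one table and 22945 in the other. The samples were 21 RNA-seq libraries. Each was made from cells that had been sorted by fluorescence after dissociating the main olfactory epithelium, the smell-sensing lining of the nose, of a transgenic mouse. Every mouse carried a tetO construct with an mCherry tag, encoding either HyperTRIBE alone (HT), an RNA-editing domain, or the RNA-binding protein Mex3a joined to HyperTRIBE (MexHT). No mouse was free of a HyperTRIBE construct. The table with both drivers held 17 libraries from mice with gg8-tTA and OMP-tTA, which drive the construct in immature and mature olfactory sensory neurons (OSN): 6 MexHT OSN, 5 MexHT negative, 3 HT OSN and 3 HT negative. The table with gg8-tTA alone, which drives it in immature OSN, held 4 libraries: 2 MexHT OSN and 2 MexHT negative. "Negative" means the mCherry-negative cells, which the labels give as the internal control from the same mouse as the OSN library of that number. Ages, sexes and strain are not given in the sources used here.

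Microvillous cells are rare non-neuronal cells of the olfactory epithelium. The tuft-like kind resembles the chemosensory tuft cells of gut and airway, which signal through a taste-type cascade ending in the Trpm5 channel, release the cytokine Il25 and depend on the transcription factor Pou2f3. The ionocyte-like kind resembles airway and kidney ionocytes, which regulate ions and pH at the epithelial surface under the transcription factor Foxi1. Neither kind is a neuron, so the mCherry-negative fraction is where their transcripts would be looked for.

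On the GRCm38 assembly, of which mm10 is the browser name, the tuft-like genes lie at chr7:143071529-143094642 (Trpm5), chr9:54534123-54545030 (Sh2d7), chr10:127000065-127020994 (Avil), chr14:54932695-54935837 (Il25), chr14:32408203-32465909 (Chat) and chr9:43123927-43205755 (Pou2f3). The ionocyte-like genes lie at chr7:109727465-109731732 (Ascl3), chr6:18170687-18322770 (Cftr) and chr11:34204341-34208089 (Foxi1). The annotation of Sh2d7 overlaps Cib2, which averaged 19.5 TPM, and that of Chat holds Slc18a3, which averaged 0.16 TPM. Whether the counting used strand is not given in the sources used here, so reads from overlapping genes cannot be told apart. Because 4 of the tuft-like genes (Trpm5, Sh2d7, Avil and Il25) and the 3 ionocyte-like genes moved together as sets across negative libraries, the 250 bases before the start site were read for the 7 members that the RefSeq promoter table (GRCm38.p6) holds. The table had no entry for Pou2f3 or Il25. Shown are 2 genes of each set, 5′ to 3′ on the strand of the gene, with E-boxes (CANNTG) and truncated octamers (ATGCAA, or TTGCAT on the other strand) in capitals. The stretches are chr10:127000459-127000708 on the plus strand for Avil, chr9:54533873-54534122 on the plus strand for Sh2d7, chr7:109731733-109731982 on the minus strand for Ascl3 and chr11:34208090-34208339 on the minus strand for Foxi1. For Avil the promoter table uses a start site inside the annotated gene, so its stretch lies within the locus given above.
Avil: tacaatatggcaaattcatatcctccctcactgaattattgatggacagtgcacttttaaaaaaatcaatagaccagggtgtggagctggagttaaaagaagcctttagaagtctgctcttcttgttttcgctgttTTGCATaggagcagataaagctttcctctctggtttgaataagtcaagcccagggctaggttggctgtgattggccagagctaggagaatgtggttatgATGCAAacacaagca
Sh2d7: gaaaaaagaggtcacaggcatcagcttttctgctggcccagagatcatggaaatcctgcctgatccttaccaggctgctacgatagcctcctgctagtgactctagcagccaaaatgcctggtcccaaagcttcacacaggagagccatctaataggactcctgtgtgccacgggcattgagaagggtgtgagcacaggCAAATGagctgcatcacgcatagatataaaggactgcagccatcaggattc
Ascl3: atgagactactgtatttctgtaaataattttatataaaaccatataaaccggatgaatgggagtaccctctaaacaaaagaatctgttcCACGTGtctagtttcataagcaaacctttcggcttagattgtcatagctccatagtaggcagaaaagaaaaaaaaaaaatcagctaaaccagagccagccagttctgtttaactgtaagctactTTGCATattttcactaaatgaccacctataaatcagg
Foxi1: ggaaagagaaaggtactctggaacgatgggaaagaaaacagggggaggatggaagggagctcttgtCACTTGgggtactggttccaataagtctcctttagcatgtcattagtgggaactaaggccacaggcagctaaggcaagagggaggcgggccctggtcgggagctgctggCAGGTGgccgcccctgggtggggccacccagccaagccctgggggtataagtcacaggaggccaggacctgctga
Each of the 4 stretches shown holds a marked match. Trpm5 and Cftr, of the same sets but not shown, held 0 E-boxes and 0 truncated octamers. Avil held 2 truncated octamers and Ascl3 held 1, and ATGCAA was in 2 of the 7 stretches against 9.46% of 32851 RefSeq promoters. E-boxes, the letters that basic helix-loop-helix factors such as Ascl3 can bind, were in 4 of 7 against 66.2%. The full octamer ATGCAAAT, the letters bound by POU factors, was in 0 of 7 against 1.60%, and the forkhead motif GTAAACA was in 0 of 7 against 3.17%. Both strands were searched, and every ATGCAAAT also contains ATGCAA. These matches describe letters only.

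Depth was recovered from the steps of the TPM values (a level scaled for gene length and library total). It was 7425287 to 12443133 counts a library in the table with both drivers and 10261268 to 15215673 in the gg8 table. Mex3a checked the labels: it was at 328.5 to 1271 TPM in MexHT OSN and at 24.0 to 61.5 TPM in HT OSN. The summed level of 10 mature OSN markers was 419.7 to 12550 TPM in the negative libraries, so neuronal transcripts were among those measured there. In 14 of 21 libraries both Xist and Y-linked transcripts reached 1 TPM, although the labels tie each number to 1 mouse. The tables were scaled separately, so tests stayed within a table and levels set across tables are given side by side only. The library names also carry a different date-like tag in each table. Differences between drivers therefore cannot be told apart from other differences between the tables.

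Trpm5, Sh2d7, Avil and Il25 were lower in the OSN library than in the negative library of each of the 10 mice that gave both, by amounts that varied widely. In HT mouse 1 the OSN library kept 72.0% of the negative level of Trpm5, while in gg8 mouse 2 it kept 1.35%. Trpm5, the cation channel that depolarises tuft cells, was at 10.1, 14.9 and 35.5 TPM in the HT negative libraries and at 25.8, 37.0, 59.1, 18.4 and 32 TPM in the MexHT negative libraries. Its OSN values were 7.25, 6.30 and 2.53 TPM in HT and had a lowest of 2.35, a median of 3.42 and a highest of 5.10 TPM in MexHT. The OSN and negative libraries did not overlap for either construct. In the gg8 table Trpm5 stood at 17.8 and 17.3 TPM in the negative libraries and at 1.74 and 0.234 TPM in the OSN libraries, the last resting on 5 counts. Sh2d7, an SH2-domain adaptor known as a tuft cell marker, kept close to Trpm5. It was at 10.4, 14 and 29.9 TPM in HT negative and at 22.1, 27.3, 54.6, 18 and 33.2 TPM in MexHT negative libraries. The HT OSN libraries held 2.85, 4.54 and 1.43 TPM and the MexHT OSN libraries 1.47 to 3.41 TPM with a median of 3.15. With gg8 alone it was at 25.3 and 9.75 TPM in negative and at 0.512 and 0.149 TPM in OSN libraries. Its fractions did not overlap in either table, and the highest library of Trpm5 in each negative group with both drivers was also the highest of Sh2d7.

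Avil encodes advillin, an actin-binding protein of microvilli and of some sensory neurons. It was at 8.94, 15.1 and 21.6 TPM in HT negative and at 19.4, 30.7, 48.7, 20.2 and 32 TPM in MexHT negative libraries. The HT OSN values were 4.17, 6.10 and 3.42 TPM, and MexHT OSN ran from 1.58 to 5.84 TPM with a median of 4.0. The fractions again did not overlap, but Avil fell least of these 4 genes in the gg8 mice, from 15.1 and 10.9 TPM in negative to 4.65 and 3.65 TPM in OSN libraries. Il25, the cytokine by which tuft cells call on type 2 immunity, was at 5.04, 4.46 and 16.7 TPM in HT negative and at 11.1, 17.4, 18.7, 10.7 and 12.3 TPM in MexHT negative libraries. Its OSN levels were 0.529, 1.87 and 0.337 TPM in HT and 0.340 to 3.98 TPM, median 1.25, in MexHT. The OSN levels were near the limit of detection, since 2 of 3 HT OSN and 3 of 6 MexHT OSN libraries held 3 counts or fewer. In the gg8 table Il25 had 112 counts over both negative libraries and 2 over both OSN libraries, a ratio of 63.0 after scaling, with an exact 95% interval of 17 to 526.8 that covers counting error only.

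Chat, which makes acetylcholine, was scarcely detected anywhere. It was at 0.953, 0.298 and 2.77 TPM in HT negative, at 1.12, 1.84, 2.85, 1.02 and 0.599 TPM in MexHT negative and at 0.701, 1.62 and 0.764 TPM in HT OSN libraries. MexHT OSN ran from 0 to 0.538 TPM with a median of 0.310, and gg8 libraries held 1.84 and 0.790 TPM in negative and 1.31 and 0.365 TPM in OSN. No library had more than 29 counts of Chat. Only the MexHT OSN libraries lay wholly below their negative libraries, and they also lay wholly below the HT OSN libraries.

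The ionocyte-like genes together outweighed Trpm5, Sh2d7, Avil and Il25 in 9 of the 10 negative libraries, MexHT negative library 5 being the exception, and were low in every OSN library. Foxi1, the transcription factor of ionocytes, was at 110.4, 70.1 and 51.2 TPM in HT negative and at 214.4, 55.3, 92.9, 85.9 and 33.6 TPM in MexHT negative libraries. The HT OSN libraries held 2.51, 3.26 and 5.47 TPM and MexHT OSN 1.02 to 5.87 TPM with a median of 2.03. In the gg8 table it was at 48.8 and 69.4 TPM in negative and at 2.40 and 2.18 TPM in OSN libraries. Even the lowest negative library was several times above the highest OSN library. Ascl3, a basic helix-loop-helix factor of this cell type, reached 144.1, 81.4 and 89.4 TPM in HT negative and 308.8, 50.2, 113.7, 85.8 and 31.0 TPM in MexHT negative libraries. Its OSN values were 1.59, 0.806 and 4.05 TPM in HT and 0 to 4.69 TPM, median 1.21, in MexHT, where 4 of 6 libraries held 3 counts or fewer. With gg8 alone it stood at 65.0 and 74.3 TPM against 1.60 and 0.290 TPM. Cftr, the chloride channel, was at 68.6, 46.5 and 27.9 TPM in HT negative and at 129.3, 24.4, 59.7, 50.8 and 18.3 TPM in MexHT negative libraries. HT OSN held 1.07, 0.857 and 1.02 TPM, MexHT OSN 0.444 to 1.62 TPM with a median of 0.959, and the gg8 libraries 13.9 and 27.1 TPM against 1.12 and 0.846 TPM. For all 3 genes MexHT negative library 1 was the highest and MexHT negative library 5 the lowest of the 8 negative libraries with both drivers.

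**Figure D1:**
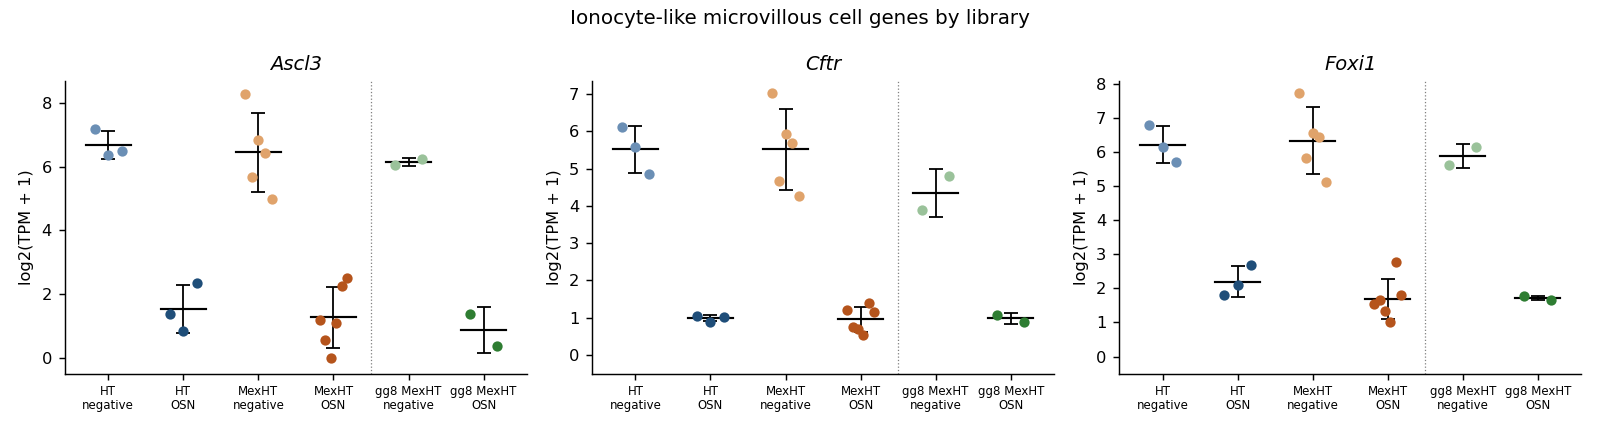
Level of the 3 ionocyte-like genes on the log2(TPM + 1) scale in each of the 21 libraries, drawn as for the tuft-like genes. Negative libraries of Foxi1 lie between 33.6 and 214.4 TPM and OSN libraries between 1.02 and 5.87 TPM.

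By group mean in the table with both drivers, Trpm5, Sh2d7 and Avil ran MexHT negative, HT negative, HT OSN and MexHT OSN from high to low. Il25 differed in that MexHT OSN (1.57 ± 1.30 TPM, SD, n = 6) stood above HT OSN (0.913 ± 0.837 TPM, SD, n = 3). In each case the first pair of groups overlapped with each other, as did the last pair, and no negative library overlapped with an OSN library of the same construct. By mean level in MexHT negative libraries, Ascl3 (117.9 ± 111.4 TPM, SD, n = 5) lay above 92.8% of 23612 genes, Foxi1 above 90.5%, Cftr above 82.1%, Trpm5 above 72.1% and Chat above 32.6%.

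The fractions were tested with limma on log2(TPM + 1) over all genes averaging 1 TPM or more, with Benjamini-Hochberg adjustment and a threshold of 0.05. In MexHT mice 7 of the 8 members tested were lower in OSN, against 27.6% of 16522 genes lower, 35.8% higher and 63.4% called in either direction. Cftr averaged 0.984 TPM in MexHT OSN and passed the limit of 1 TPM only through the negative libraries. Its call could only be lower. The ionocyte-like genes fell furthest, Ascl3 by 5.18 (SE 0.57), Foxi1 by 4.64 (SE 0.42) and Cftr by 4.56 (SE 0.41) on the log2 scale. Sh2d7 fell by 2.98, Trpm5 by 2.85, Avil by 2.65 and Il25 by 2.65, and adjusted p ran from 9.88e-07 to 1.08e-05 over the 7 genes. Leaving out any 1 of the 11 libraries ended none of these calls. Chat averaged under 1 TPM and was not tested. In bulk libraries, fewer cells of a type and less RNA per cell cannot be told apart. Markers listed for other cell types moved in both directions. The summed level of 9 neutrophil and precursor markers in OSN was 1.22% to 3.65% of that in the negative library of the same mouse over all 10 mice. The summed level of 10 leukocyte markers was 10.7% to 17.9% of the negative level in MexHT mice but 68.3% to 189.6% in HT mice, where 3 of 10 markers were higher in OSN and 0 lower. In MexHT mice 4 of 10 sustentacular cell markers were lower in OSN and 0 higher. Of 6 markers listed for respiratory ciliated cells 5 were higher in OSN of the same mice and 0 lower. In gg8 mice the ciliated markers summed to 84.45 to 237.4 TPM in OSN against 280.0 to 327.9 TPM in negative libraries. The mature OSN markers there summed to 212.6 to 711.9 TPM against 7014 to 12550 TPM. Whether the ciliated markers came from non-neuronal cells was not tested. The part of these lists in the members' differences was not tested.

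In HT mice 6 of 9 members were lower in OSN, against 9.11% of 17027 genes lower, 2.18% higher and 11.3% called in either direction. Cftr averaged 0.983 TPM and Il25 0.913 TPM in HT OSN. Both passed the filter on low genes only through the negative libraries, so their calls could only be lower. The log2 changes were -4.53 for Cftr (SE 0.33, adjusted p = 0.00217), -5.16 for Ascl3 (SE 0.41, adjusted p = 0.00222) and -4.02 for Foxi1 (SE 0.34, adjusted p = 0.00222), and these calls held without any 1 of the 6 libraries. The tuft-like genes were called less firmly, with Sh2d7 falling by 2.22 (SE 0.46, adjusted p = 0.0289), Avil by 1.49 (SE 0.35, adjusted p = 0.0424) and Il25 by 2.21 (SE 0.54, adjusted p = 0.0468). Each of those 3 calls ended in 5 of the 6 fits that left out 1 library, with adjusted p up to 0.152, and all 3 ended when recovered counts were fitted with voom (adjusted p = 0.0619 to 0.0691). Testing without the filter on low genes also ended the calls of Il25 and Avil. Trpm5 had a log2 difference of -1.64 (95% interval -2.87 to -0.41, adjusted p = 0.0836), with every HT OSN library below every HT negative library. With all 4 groups in 1 fit it passed (adjusted p = 0.0164). With the mouse as a block 4967 genes were called, 29.2% of those tested, and the same number of members, 6.

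In the gg8 mice 7 of 9 members were lower in OSN, against 7.2% of 16490 genes lower, 1.12% higher and 8.32% called in either direction. Trpm5, Sh2d7, Il25, Ascl3 and Cftr averaged 0.229 to 0.986 TPM in these OSN libraries. They passed the filter on low genes only through the negative libraries, so their calls could only be lower. Ascl3 fell by 5.27 (SE 0.54, adjusted p = 0.0109), Foxi1 by 4.17, Cftr by 3.37, Sh2d7 by 3.67, Il25 by 3.36, Trpm5 by 3.34 and Pou2f3 by 2.95, with adjusted p up to 0.0366. Avil had a log2 difference of -1.43 (95% interval -2.64 to -0.23, adjusted p = 0.118) and Chat one of -0.34 (95% interval -1.59 to 0.90, adjusted p = 0.675). These groups had 2 libraries each. Leaving out OSN library 2 or either negative library left 0 genes and 0 members called, and leaving out OSN library 1 left 7 members called. The call of Trpm5 also ended on the log2(TPM + 0.1) scale (adjusted p = 0.0572). The remaining lone library was then assumed to vary like the other group.

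**Figure D2:**
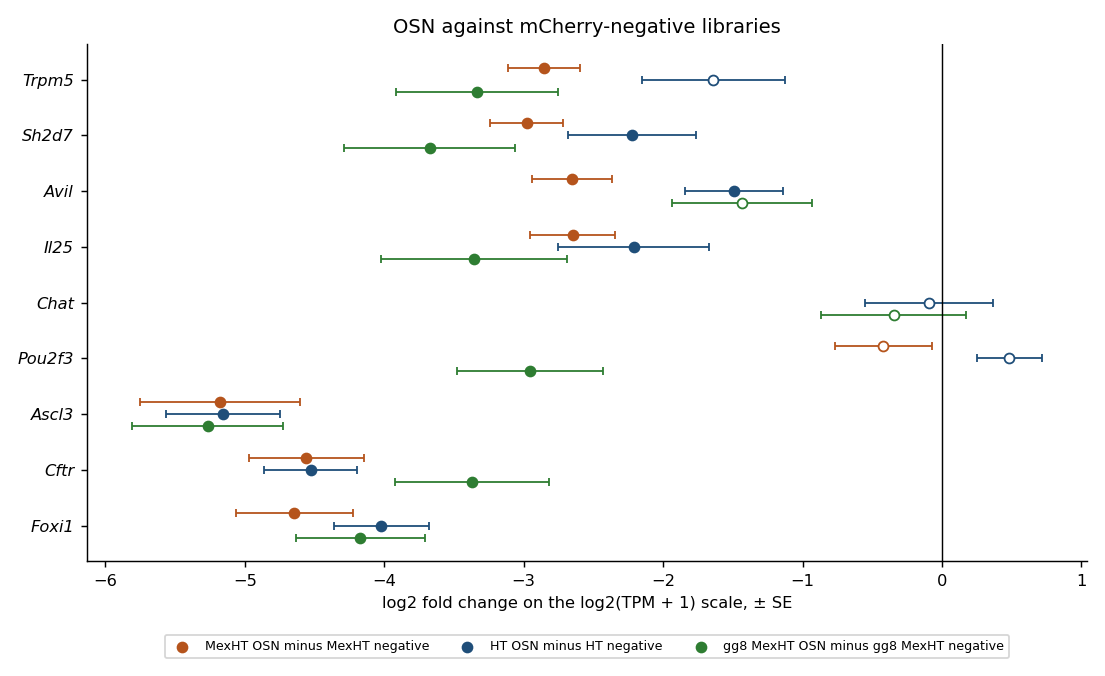
Log2 fold change of OSN against negative libraries for the 9 genes, on the log2(TPM + 1) scale, with SE bars and 1 colour per group of mice. Filled points passed an adjusted p of 0.05 in limma, open points did not, and Chat in MexHT mice was not tested. Ascl3, Cftr and Foxi1 lie at -3.37 or lower in all 3 groups of mice, and Pou2f3 is on the negative side with a filled point only in the gg8 mice.

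Pou2f3 did not follow the other tuft-like genes. This POU-domain factor specifies tuft cells in gut and airway, yet in mice with both drivers its OSN libraries overlapped with their negative libraries. It was at 31.5, 28.4 and 17.5 TPM in HT OSN and at 16.3, 18.7 and 17.9 TPM in HT negative libraries, a log2 difference of 0.48 (95% interval -0.07 to 1.04, adjusted p = 0.187). MexHT OSN ran from 3.21 to 12.6 TPM with a median of 9.24, and MexHT negative libraries held 10.2, 17.3, 13.7, 6.91 and 7.47 TPM, a log2 difference of -0.42 (95% interval -1.17 to 0.33, adjusted p = 0.305). Both pairs of groups overlapped, and without HT OSN library 3 the HT difference passed, at 0.73 (adjusted p = 0.0487). In the gg8 mice, by contrast, the negative libraries held 14.5 and 16.9 TPM and the OSN libraries 1.68 and 0.732 TPM, 11.6% and 4.32% of the negative level of the same mouse. In mice with both drivers that share was 57.9% to 192.7%. The summed level of 10 mature OSN markers was 8024 to 12660 TPM in HT OSN, 1906 to 6002 TPM in MexHT OSN and 212.6 to 711.9 TPM in gg8 OSN libraries, the same order as Pou2f3. That order did not hold across all libraries. MexHT negative library 5 had a marker sum of 419.7 TPM with Pou2f3 at 7.47 TPM, while gg8 OSN library 1 had 711.9 TPM with 1.68 TPM. The part of the marker sum in the Pou2f3 level was not tested.

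**Figure D3:**
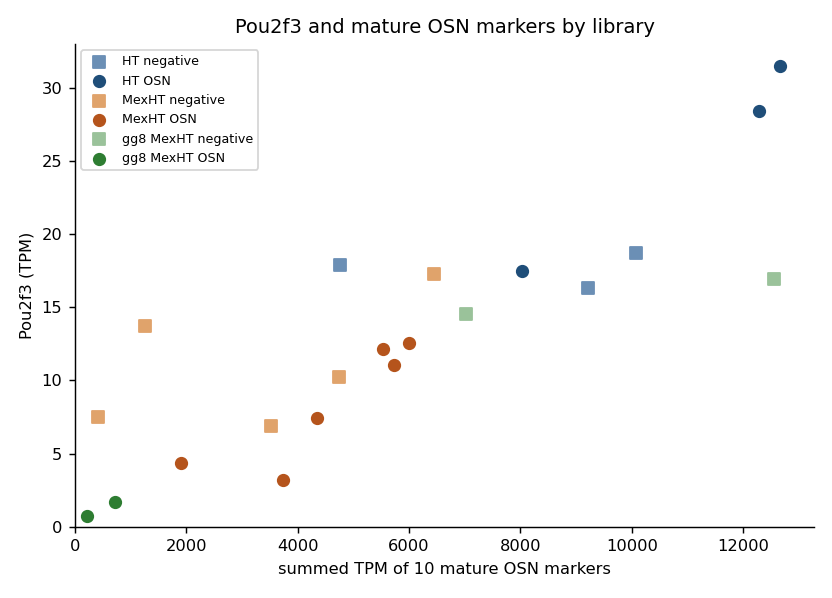
Level of Pou2f3 (TPM) against the summed level of 10 mature OSN markers (TPM) in the 21 libraries, with circles for OSN and squares for negative libraries and 1 colour per group. HT OSN libraries lie between 17.5 and 31.5 TPM, 2 of the 3 at the upper right, and gg8 MexHT OSN libraries at the lower left, between 0.732 and 1.68 TPM.

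Between constructs, Pou2f3 was the 1 member of 7 tested that differed in OSN, where 16.8% of 16067 genes were lower in MexHT, 19.9% higher and 36.8% called in either direction. It was 3.02-fold lower in MexHT OSN than in HT OSN, a log2 change of -1.60 (SE 0.40, adjusted p = 0.0114), with every MexHT OSN library below every HT OSN library. The call ended without HT OSN library 1 (log2 change -1.44, adjusted p = 0.0556) and with the Xist level as a covariate (log2 change -1.57, adjusted p = 0.247). Of the 10 mature OSN markers 8 were lower in MexHT OSN and 0 higher, with a median of -1.33 on the log2 scale against 0.03 over all genes. Their part in the difference in Pou2f3 was not tested. The other members tested had differences between -0.51 (Foxi1, 95% interval -1.33 to 0.32, adjusted p = 0.303) and 0.38 (Il25, 95% interval -0.55 to 1.31, adjusted p = 0.506), and the libraries of both constructs overlapped for each. Without HT OSN library 3 Trpm5 passed, at -0.77 (adjusted p = 0.0495). Chat and Cftr averaged under 1 TPM there and were not tested.

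In the negative fraction 0 of 9 members and 0% of 16860 genes differed between MexHT and HT by limma, with 3465 genes and 2 members at an unadjusted p under 0.05, and 0 genes by voom on recovered counts. Of the 6 tuft-like genes 5 had a positive log2 difference, Pou2f3 being the exception, and Chat was at 0.16 (95% interval -0.77 to 1.09). Avil had a log2 difference of 0.94 (95% interval 0.15 to 1.74, adjusted p = 0.218), Trpm5 one of 0.83 (95% interval -0.17 to 1.83, adjusted p = 0.301), Il25 one of 0.82 (95% interval -0.07 to 1.70, adjusted p = 0.27) and Sh2d7 one of 0.78 (95% interval -0.14 to 1.69, adjusted p = 0.294). Pou2f3 had one of -0.69 (95% interval -1.34 to -0.05, adjusted p = 0.233). The ionocyte-like genes sat near 0, at -0.24 for Ascl3 (95% interval -1.68 to 1.21), 0.00 for Cftr (95% interval -1.33 to 1.34) and 0.12 for Foxi1 (95% interval -1.08 to 1.31). Libraries of both constructs overlapped for all 9 genes. These intervals leave room for changes of more than 2-fold in either direction for the ionocyte-like genes. A positive difference was not particular to tuft-like genes. Medians of the other marker lists ran from 0.17 for immature OSN to 1.15 for horizontal basal cells, against -0.01 over all genes. The exceptions were mature OSN at -1.67 and ciliated cells at -1.07. The part of these lists in the members' differences was not tested.

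Whether the OSN-to-negative difference itself changed with the construct was tested as an interaction over the 17 libraries. Of the 8 members tested 0 passed by limma, against 12.4% of 16785 genes, 7.05% with a higher and 5.37% with a lower value, and 2 members had an unadjusted p under 0.05. By voom 1769 genes and 0 members passed. Trpm5 had an interaction of -1.22 (SE 0.55, adjusted p = 0.157), Avil one of -1.16 (SE 0.49, adjusted p = 0.13) and Pou2f3 one of -0.90 (SE 0.53, adjusted p = 0.279). Without HT negative library 3 Trpm5 passed, at -1.70 (adjusted p = 0.0403). Ascl3 and Cftr were at -0.02 and -0.03. Their 95% intervals, -1.91 to 1.87 and -1.39 to 1.33, were wide.

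Across the negative libraries with both drivers, Trpm5, Sh2d7, Avil and Il25 rose and fell together, as did Ascl3, Cftr and Foxi1. Pou2f3 and Chat had no pair that passed. Over the 8 negative libraries of the table with both drivers, all 36 pairs of the 9 members were compared on the log2(TPM + 1) scale with exact two-sided permutation tests. Pairs of other genes were not compared, so the share of all gene pairs with r as high is not given. The make-up of these libraries varied, with mature OSN marker sums of 419.7 to 10080 TPM. The 6 pairs among Trpm5, Sh2d7, Avil and Il25 had Pearson's r of 0.84 to 0.98 (p = 0.000149 to 0.00494 by exact permutation, adjusted p = 0.00268 to 0.0197) and Spearman's rho of 0.88 to 0.98 (adjusted p = 0.00714 to 0.0326). The 3 pairs among Ascl3, Cftr and Foxi1 had r of 0.95 to 0.98 (p = 4.96e-05 to 0.000918 by exact permutation, adjusted p = 0.00179 to 0.00551) and rho of 0.86 to 0.98 (adjusted p = 0.00714 to 0.0429). Without the 2 libraries farthest from the median of 1 gene of the pair, r was 0.67 to 0.94 and 0.77 to 0.96. The libraries left out could thus differ between pairs. The 12 pairs across these sets had r of -0.38 to -0.21 (adjusted p = 0.827 for each, exact permutation), and Pou2f3 had r of -0.23 to -0.04 with the 4 tuft-like genes (adjusted p = 0.827 to 0.973). With 2 libraries left out in the same way, r was -0.67 to -0.21 and -0.26 to 0.12. Pou2f3 with Ascl3, Cftr and Foxi1 then had r of -0.89 to -0.83, against -0.03 to 0.12 over all 8 libraries. Chat had r of 0.51 with Avil, 0.65 with Sh2d7, 0.71 with Trpm5 and 0.79 with Il25 (adjusted p = 0.0688 to 0.527, exact permutation) and 0.27 with Pou2f3. All pairs share the depth and scaling of their libraries, and the groups of 5 MexHT and 3 HT libraries were too small for an r of their own. Each r therefore mixes differences between constructs with those between mice, and the permutations moved libraries across constructs. Trpm5, Sh2d7, Avil and Il25 were each higher in MexHT negative libraries, by log2 differences of 0.777 to 0.945 that did not pass.

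Summed levels show the same mice. The 3 ionocyte-like genes together reached 652.5 TPM in MexHT negative library 1 and 82.8 TPM in MexHT negative library 5. The 4 tuft-like genes (Trpm5, Sh2d7, Avil and Il25) summed to 78.4 and 109.5 TPM in those libraries, and to their highest, 181.1 TPM, in MexHT negative library 3. The ratio of the ionocyte-like to the tuft-like sum thus ran from 0.756 in MexHT negative library 5 to 9.37 in HT negative library 1. In the gg8 negative libraries it was 1.60 and 3.88.

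**Figure D4:**
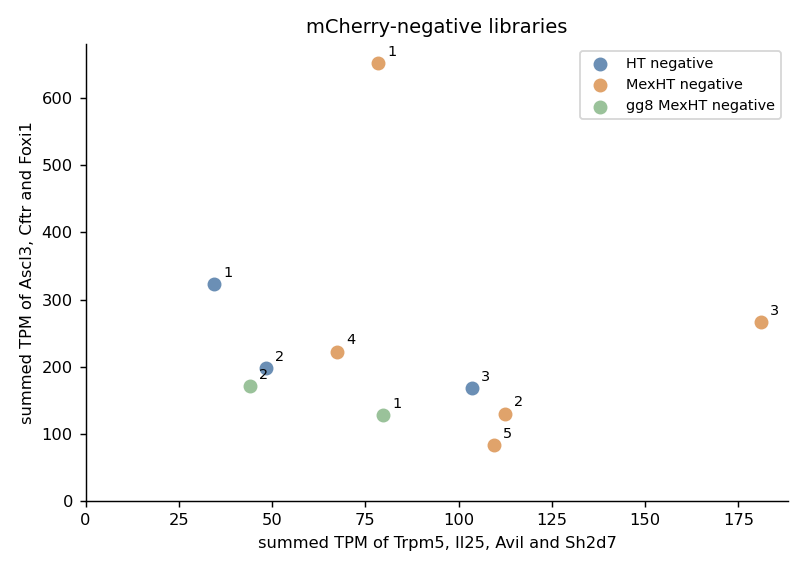
Summed TPM of Ascl3, Cftr and Foxi1 against summed TPM of Trpm5, Il25, Avil and Sh2d7 in the 10 negative libraries, coloured by group and numbered by mouse within the group. The library with the highest ionocyte-like sum, 652.5 TPM, has a tuft-like sum of 78.4 TPM.

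Other genes of each cell type were taken from lists that do not include the members. Of 19 further tuft cell genes in the table, the most abundant in the 8 negative libraries were Alox5ap (141.5 ± 47.3 TPM, SD, n = 8) and Alox5 (48.0 ± 18.1 TPM), which start leukotriene synthesis, and Itpr3 (39.2 ± 20.6 TPM), the calcium channel of the taste cascade. In MexHT mice 14 of 16 tested fell in OSN and 2 rose, where 27.6% of all genes fell and 35.8% rose, with a median of -2.16 on the log2 scale against 0.16 over all genes. Alox5ap fell by 4.79, Alox5 by 3.47 and Itpr3 by 2.88. Those that rose were Dclk1 (log2 change 1.34) and Tas1r3 (log2 change 0.92), and Dclk1 is a kinase also expressed in developing neurons. In HT mice 5 of 16 fell, against 9.11% of all genes, and 1 rose, Hpgds (log2 change 2.27), the prostaglandin D synthase of haematopoietic cells. In gg8 mice 5 of 16 fell, against 7.2% of all genes, and 0 rose, and these calls ended without the libraries named above whose loss left 0 genes called. Itpr3 was highest in MexHT negative library 1 (85.0 TPM), as were Ascl3, Cftr and Foxi1, while Trpm5 was highest in library 3. Its lowest was MexHT negative library 2 (20.7 TPM), where those 3 genes had theirs in library 5. Alox5ap and the neutrophil marker Elane were both lowest in HT negative library 2 (56.9 and 183.7 TPM). Among HT negative libraries both were highest in library 3 (191.5 and 683.1 TPM). Among MexHT negative libraries both were lowest in library 1 (120.0 and 301.9 TPM). Their highest differed there, library 5 for Alox5ap (206.8 TPM) and library 2 for Elane (742.9 TPM). The other neutrophil markers were not set beside Alox5ap. From which cells the transcripts of this list came was not tested.

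The construct comparison in OSN called 7 of the 13 tested tuft genes of that list, 5 lower and 2 higher, where 16.8% of all genes were lower and 19.9% higher. Lower in MexHT OSN were Hpgds (log2 change -2.46, adjusted p = 0.00115), Ptgs1 (-1.88, adjusted p = 0.00574), Plcb2 (-1.68, adjusted p = 0.00603), Alox5ap (-1.28, adjusted p = 0.019) and Ltc4s (-1.22, adjusted p = 0.0346). All are also expressed by leukocytes. The leukocyte list moved with them, with 10 of 10 markers lower in MexHT OSN, a median of -2.48 and a summed level of 1304 to 5390 TPM in HT OSN against 305.5 to 589.2 TPM in MexHT OSN. Its part in these differences was not tested. The same 5 genes were those that passed the interaction, where the leukocyte list had 10 of 10 lower. Dclk1 and Tas1r3 were higher in MexHT OSN by log2 changes of 0.93 (adjusted p = 0.0146) and 0.73 (adjusted p = 0.0168). In the negative fraction 0 of 16 differed, with a median of 0.51.

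Among 16 further ionocyte genes the most abundant were Coch (893.4 ± 632.9 TPM, SD, n = 8), which encodes cochlin, Stap1 (186.7 ± 140.0 TPM), an adaptor protein, and Moxd1 (108.5 ± 72.4 TPM), a monooxygenase-like protein. In OSN 14 of 16 fell in MexHT mice, 11 of 16 in HT mice and 10 of 15 in gg8 mice, and 0 rose, where 27.6%, 9.11% and 7.2% of all genes fell. The gg8 calls ended without OSN library 2 or either negative library. The list medians in MexHT, HT and gg8 mice were -3.44, -2.95 and -2.97 on the log2 scale, against 0.16, 0.1 and 0.09 over all genes. Single genes ran from -4.98 to -0.13 in MexHT, -5.05 to 0.47 in HT and -4.99 to -0.38 in gg8 mice. Moxd1 was at -4.98, -5.05 and -4.14 in that order, the lowest of the list in MexHT and HT mice. Between constructs, Stap1 (log2 change -1.08, adjusted p = 0.0279) and Coch (log2 change -0.91, adjusted p = 0.0336) were lower in MexHT OSN, 2 of 11 tested, a share near the 16.8% of all genes that were lower. Stap1 is also expressed by leukocytes, whose markers moved as given above. In the negative fraction 0 of 16 differed between constructs, with a median of 0.20.

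The genes whose pattern over the 17 libraries was most like each member are given by Pearson's r on log2(TPM + 1) over 14916 genes, as a description. For Trpm5 they were Sh2d7 (r = 0.98), Adgrg6 (0.98) and Avil (0.96). For Sh2d7 they were Adgrg6 (0.99), Trpm5 (0.98) and Atp2a3 (0.97), for Avil they were Eppk1 (0.97), Adgrg6 (0.97) and Sh2d7 (0.97), and for Il25 they were Smad5 (0.96), Adgrg6 (0.96) and Sh2d7 (0.95). Adgrg6, an adhesion G protein-coupled receptor, thus stood beside all 4. Cftr had Galnt13 (1.00), Moxd1 (0.99) and Scnn1g (0.99), a subunit of the epithelial sodium channel. Foxi1 had Muc20 (0.99), Cftr (0.99) and Stap1 (0.99), and Ascl3 had Foxi1 (0.98), Cftr (0.98) and Kremen1 (0.98). Pou2f3 instead had the odorant receptor gene Olfr370 (0.94), Uvssa (0.94) and Tmtc4 (0.93). Its r was 0.80 with Adcy3, the adenylyl cyclase of mature OSN, but 0.43 with Omp, another mature OSN marker, and 0.23 with Trpm5. Members of a set were not always among the genes most alike. By r Ascl3 ranked 24 for Cftr, and Il25 ranked 27 for Sh2d7. These values share the difference between fractions.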

How the data were processed

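RNA was measured in 21 libraries of sorted cells. The authors deposited 2 tables of TPM values by gene symbol. Per the submitters' processing notes, the tools named were FastQC, cutadapt, STAR and bedtools and the build was mm10, with no versions. Per the labels' protocols, cells were freed with papain, RNA was taken up in TRIzol, and the library kit was a stranded one for total RNA. Whole counts were recovered from the steps of the TPM values for 23613 of 23614 genes in the table with both drivers and for 22775 of 22808 (99.9%) in the gg8 table, within 0.01 and 0.05 of a whole number. Their sums are the depths given. Floors and counting intervals cover counting error only, since the labels describe no molecular identifiers.

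Symbols turned into dates, 27 per table, were left out of tests. Fits used limma 3.58.1 in R 4.3.3 with moderated variances that follow expression level, on log2(TPM + 1). Only the groups compared entered, and genes averaging under 1 TPM in them were left out. Between fractions, members and list genes under 1 TPM on average in OSN thus entered only through the negative libraries. Such genes could only be called lower in OSN. P-values were two-sided and adjusted with the Benjamini-Hochberg method over all genes tested. The fits were checked on simulated data. Permutation tests used scipy 1.17.1 in Python 3.11.15. Intervals are 95% intervals of the fit unless named otherwise. Where nothing says that mice were raised or prepared apart, p-values measure the spread between these samples.

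The members and lists were chosen with earlier results of these data known. The 9 members are always named, with the 3 most abundant genes of each further list, list genes that passed between constructs and the 3 most alike genes per member. Hpgds in HT mice, Dclk1 and Tas1r3 in MexHT mice, and the E-box and ATGCAA motifs were chosen after their values were seen. Elane was named outside these rules. Negative and OSN libraries of a number are the same mouse per the labels, so the mouse was a block in an alternative fit. Between constructs, same-numbered negative libraries had deviations correlated at 0.23 to 0.42, and same-numbered OSN libraries at -0.234 to 0.133. OSN and negative libraries of the same mouse were at -0.113 to 0.421 in MexHT, 0.183 to 0.475 in HT and 0.018 in gg8 mice. Alternatives were another pseudocount (0.1), no filter, median-of-ratios scaling, voom on recovered counts, the replicate block, all 4 groups in 1 fit, the Xist level as a covariate and leaving out each library. Editing sites were not analysed here.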

Additional observations from a re-analysis of the deposited data

Results flagged for a closer look

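Dixon's test at the 95% level was applied to each member in the groups of 5 MexHT negative and 6 MexHT OSN libraries, 18 sets of values in all. Chance alone picks out about 1 in 20 such sets. It picked out 2. Foxi1 was at 5.87 TPM in MexHT OSN library 5, where the other 5 libraries held 1.02 to 2.50 TPM, a gap of 0.695 of the whole range against a critical value of 0.625. Ascl3 and Cftr were also high in that library, at 3.78 and 1.62 TPM. Sh2d7 was at 1.47 TPM in MexHT OSN library 6, where the others held 2.76 to 3.41 TPM, a gap of 0.662 of the range. Trpm5 was lowest in the same library, at 2.35 TPM.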

How the results depend on the processing

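The 7 calls of members in MexHT OSN against negative libraries stood under every alternative run, with 9623 to 10713 genes and 7 to 7 members called when 1 library was left out. Beside the main 1923 genes and 6 members, HT OSN against negative libraries called 1057 genes and 3 members by voom, 4967 genes with the replicate block, and 660 to 4183 genes and 3 to 5 members without 1 library. The gg8 comparison called 646 genes with log2(TPM + 0.1), and 0 to 3703 genes and 0 to 7 members without 1 library. MexHT against HT in OSN called 2 members with no filter, 329 genes and 0 members with the Xist covariate, and 3745 to 6506 genes and 0 to 2 members without 1 library. The additional member with no filter was Chat (log2 change -0.67, adjusted p = 0.0339). MexHT against HT in negative libraries called 1 gene with no filter, 24 with all 4 groups in 1 fit, and 0 to 4 genes and 0 to 0 members without 1 library. The interaction called 1195 to 2483 genes and 0 to 1 members without 1 library. The block for the mouse or number changed no other call of a member. Median-of-ratios scaling moved the median of all genes in MexHT OSN against negative libraries from 0.16 to 0.03 and the split of higher and lower calls from 5909 and 4558 to 4875 and 5150. It moved the interaction from 1184 and 902 to 714 and 1053. The cause of these shifts was not tested.

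Signs turned only for members that were not called. In MexHT against HT OSN, Sh2d7 was 0.00 with median-of-ratios scaling, -0.59 with the Xist covariate and -0.29 to 0.31 without 1 library. With that covariate Il25 was -0.13 and Ascl3 0.41, and Ascl3 was -0.59 to 0.15 without 1 library. In negative libraries Ascl3 was 0.25 with the replicate block, 0.34 with the Xist covariate and -0.69 to 0.13 without 1 library. Cftr was 0.00 with log2(TPM + 0.1) and -0.38 to 0.31 without 1 library, Foxi1 -0.24 to 0.42 and Chat -0.20 to 0.57. Without 1 library Chat was -0.45 to 0.02 in HT fractions and -0.68 to 0.03 in gg8 fractions, and in the interaction Ascl3 was -0.38 to 0.44 and Cftr -0.34 to 0.35. Depth limits Chat, and Il25 and Ascl3 in OSN, where libraries held 3 counts or fewer.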

Other observations

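The share of each member's negative level that remained in the OSN library of the same mouse varied between genes and mice. Over the 10 mice Avil ran from 6.84% to 46.7% with a median of 22%, Trpm5 from 1.35% to 72.0% with a median of 11.2%, and Sh2d7 from 1.52% to 32.5% with a median of 11%. Ascl3 ran from 0% to 12.2% with a median of 1.05%, Cftr from 0.874% to 8.85% with a median of 2.34%, and Foxi1 from 0.899% to 17.5% with a median of 3.5%. Avil kept a larger share than each of the 3 ionocyte-like genes in 10 of 10 mice, Trpm5 and Il25 in 7 and Sh2d7 in 6, and all 4 tuft-like genes did so in 6. In both gg8 mice Sh2d7, at 2.02% and 1.52%, kept less than Cftr, at 8.07% and 3.12%. In the gg8 mice Avil kept 30.7% and 33.5%, while Trpm5 kept 9.78% and 1.35%. The difference in share between the sets was not tested. Advillin is also known from sensory neurons, as background.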
